A study of Homo sapiens with 16 samples.

Results

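The Hippo pathway kinases and the proteins that act upstream of them were followed as 10 genes: LATS1, LATS2, STK3, STK4, SAV1, MOB1A, MOB1B, NF2, WWC1 and PTPN14. They were chosen by gene symbol, from the probe sets whose annotation names 1 gene. All 10 were on the array, with 47 probe sets among them, of 19775 genes measured. Where a gene had several probe sets, the one with the highest mean over all 16 arrays (the brightest) gives its value, and the others are described beside it. MCF10A, an immortalized mammary epithelial line that does not form tumours, and MDA-MB-231, a breast cancer line, were kept for 24 h with 2-deoxy-glucose (2DG) at 50 mM, an inhibitor of glucose metabolism, or with water as vehicle. Each of the 4 groups had 4 replicate cultures (A to D), all seeded at low confluence with 17.5 mM glucose. MDA-MB-231 grew with fetal bovine serum and MCF10A with horse serum, hydrocortisone, cholera toxin, insulin and epidermal growth factor. Line and medium therefore cannot be told apart, and each line is a single line of its kind. As background, MDA-MB-231 is known to carry a truncating mutation in NF2.

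In the Hippo pathway, the kinases MST2 and MST1, encoded by STK3 and STK4, bind the scaffold SAV1 and phosphorylate the LATS kinases and their coactivators MOB1A and MOB1B. Active LATS1 and LATS2 phosphorylate the coactivators YAP and TAZ, which then stay out of the nucleus and no longer act with TEAD factors. Merlin, encoded by NF2, and KIBRA, encoded by WWC1, bring the kinases together at the cell cortex, and PTPN14 is a phosphatase that binds YAP. In mammary epithelial cells the pathway is known for limiting growth at high cell density.

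Promoter sequence is shown for the genes whose brightest probe set rose in both lines (LATS1, LATS2 and SAV1), fell by the largest amounts (NF2 and WWC1) or rose in MCF10A without a call in MDA-MB-231 (PTPN14). The sequences are RefSeq's, build GRCh38.p14, and hold the 250 bases before the most upstream RefSeq start of the gene. They lie at chr6:149718102-149718351 (minus strand), chr13:21061587-21061836 (minus strand), chr14:50668307-50668556 (minus strand), chr22:29603306-29603555 (plus strand), chr5:168291395-168291644 (plus strand) and chr1:214551603-214551852 (minus strand). The capitals in PTPN14 mark the only searched motif found complete in these 6 stretches, GGAATG on the other strand.
LATS1: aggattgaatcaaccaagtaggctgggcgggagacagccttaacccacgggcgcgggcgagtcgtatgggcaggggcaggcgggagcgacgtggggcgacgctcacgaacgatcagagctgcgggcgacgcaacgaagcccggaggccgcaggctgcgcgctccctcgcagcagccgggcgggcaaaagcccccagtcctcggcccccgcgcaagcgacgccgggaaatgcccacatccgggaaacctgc
LATS2: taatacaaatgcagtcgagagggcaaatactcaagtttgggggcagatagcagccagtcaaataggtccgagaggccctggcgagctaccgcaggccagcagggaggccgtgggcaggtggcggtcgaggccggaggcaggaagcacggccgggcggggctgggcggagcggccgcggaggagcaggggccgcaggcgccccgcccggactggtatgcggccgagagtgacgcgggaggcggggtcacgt
SAV1: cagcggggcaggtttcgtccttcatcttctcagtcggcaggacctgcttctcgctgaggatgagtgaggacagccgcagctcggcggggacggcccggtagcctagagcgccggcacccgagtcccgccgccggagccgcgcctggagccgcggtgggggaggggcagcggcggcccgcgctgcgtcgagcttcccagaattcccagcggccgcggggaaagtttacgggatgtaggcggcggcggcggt
NF2: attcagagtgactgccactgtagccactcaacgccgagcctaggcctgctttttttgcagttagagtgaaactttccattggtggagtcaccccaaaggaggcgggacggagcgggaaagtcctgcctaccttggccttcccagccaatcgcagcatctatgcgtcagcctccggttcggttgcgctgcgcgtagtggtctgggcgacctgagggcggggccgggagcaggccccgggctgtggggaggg
WWC1: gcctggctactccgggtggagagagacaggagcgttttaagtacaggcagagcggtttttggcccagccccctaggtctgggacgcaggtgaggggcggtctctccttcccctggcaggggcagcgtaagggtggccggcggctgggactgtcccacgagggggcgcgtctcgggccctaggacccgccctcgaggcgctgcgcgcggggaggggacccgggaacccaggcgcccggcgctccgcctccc
PTPN14: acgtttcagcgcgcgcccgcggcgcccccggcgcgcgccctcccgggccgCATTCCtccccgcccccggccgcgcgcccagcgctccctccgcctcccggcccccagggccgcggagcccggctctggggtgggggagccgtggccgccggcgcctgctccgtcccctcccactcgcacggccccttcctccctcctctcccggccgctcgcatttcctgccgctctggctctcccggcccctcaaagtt
Windows of 300 bases (250 before and 50 after a start) were available here for 9 of the 10 genes, 12 windows in all, and were searched on both strands for 3 short motifs. GGAATG, the core of the TEAD binding motif, was found for 2 of the 9 genes, PTPN14 with its first base at -200 and LATS2 with its first base at 10, counted from the start as 1. Among all 35116 windows of this length, 14.0% held it. The shares over all windows count windows and not genes, and 3 of the 9 genes had more than 1 window. CACGTG, the canonical E-box, was found in LATS2 at -5 and in STK4 at -99, against 7.3% of all windows. TGATGNAAN, the composite element of C/EBP and ATF factors such as ATF4, was found for 1 gene, at -75 from the second start of LATS1, against 3.6% of all windows. The 30 bases around the LATS2 start (chr13:21061566-21061595, minus strand), with the E-box and the TEAD core in capitals, show that these matches do not overlap.
LATS2: gggtCACGTGacgcccgtGGAATGccaaca
No factor binding was measured in this series, and the matches describe letters in these windows.

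The arrays matched the labelled lines on most markers. Of the 10 listed epithelial markers of MCF10A, 6 had a value here. All 6 were higher in MCF10A vehicle than in MDA-MB-231 vehicle, with summed log2 values of 75.6 to 75.9 against 38.1 to 38.8, and CDH1 (E-cadherin) was at 13.06 against 4.62. Of the 8 mesenchymal markers, 5 were higher in MDA-MB-231, with ZEB1 at 11.29 against 7.75, while SPARC, SPOCK1 and BNC2 were higher in MCF10A. Their summed values were close, at 80.0 to 80.9 in MDA-MB-231 vehicle and 79.1 to 79.9 in MCF10A vehicle. The log2 ratio of the 3' to the 5' actin control probe set, which rises as RNA degrades, was 0.393 ± 0.067 (SD, n = 4) in MCF10A vehicle and 0.55 ± 0.068 with 2DG. MDA-MB-231 arrays had 0.597 ± 0.331 on vehicle, where replicate B stood apart at 1.09, and 1.027 ± 0.071 with 2DG. The same ratio of GAPDH was 0.155 ± 0.013 and 0.17 ± 0.014 in MCF10A, and 0.215 ± 0.124 and 0.348 ± 0.056 in MDA-MB-231. The actin ratio thus moved with 2DG, and a fit with it as a covariate ended 2 calls among the 10 genes, that of STK3 in MDA-MB-231 and that of the LATS1 difference between the lines.

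With 2DG, 4 of the 10 genes rose in MCF10A (LATS1, LATS2, SAV1 and PTPN14), 5 fell (STK3, MOB1A, MOB1B, NF2 and WWC1) and STK4 did not pass the test. In MDA-MB-231, 5 rose (LATS1, LATS2, STK3, SAV1 and MOB1A), 3 fell (MOB1B, NF2 and WWC1), and STK4 and PTPN14 did not pass. Calls took a limma p adjusted over all genes (Benjamini-Hochberg) below 0.05. That rule called 29.0% of all genes higher and 25.2% lower in MCF10A, and 25.5% higher and 25.4% lower in MDA-MB-231, so calls were common on these arrays. With the mean of all probe sets of a gene in place of the brightest, 1 of the 10 genes was called higher in MCF10A. The share of all genes called in that setting is not given here. The median size of change of the 10 genes was 0.31 log2 in MCF10A and 0.51 in MDA-MB-231, beside 0.20 and 0.17 over all genes. Their median signed change was -0.08 and 0.08, beside 0.02 and 0.03 over all genes. The brightest sets of the 10 had means over the 16 arrays from 9.08 to 12.55, while array medians were between 6.17 and 6.22. Small signals are compressed, and whether the sizes exceed those of other genes of like brightness was not tested. These are bulk samples, in which a lower share of cells with a transcript and less of it per cell cannot be told apart.

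**Figure D1:**
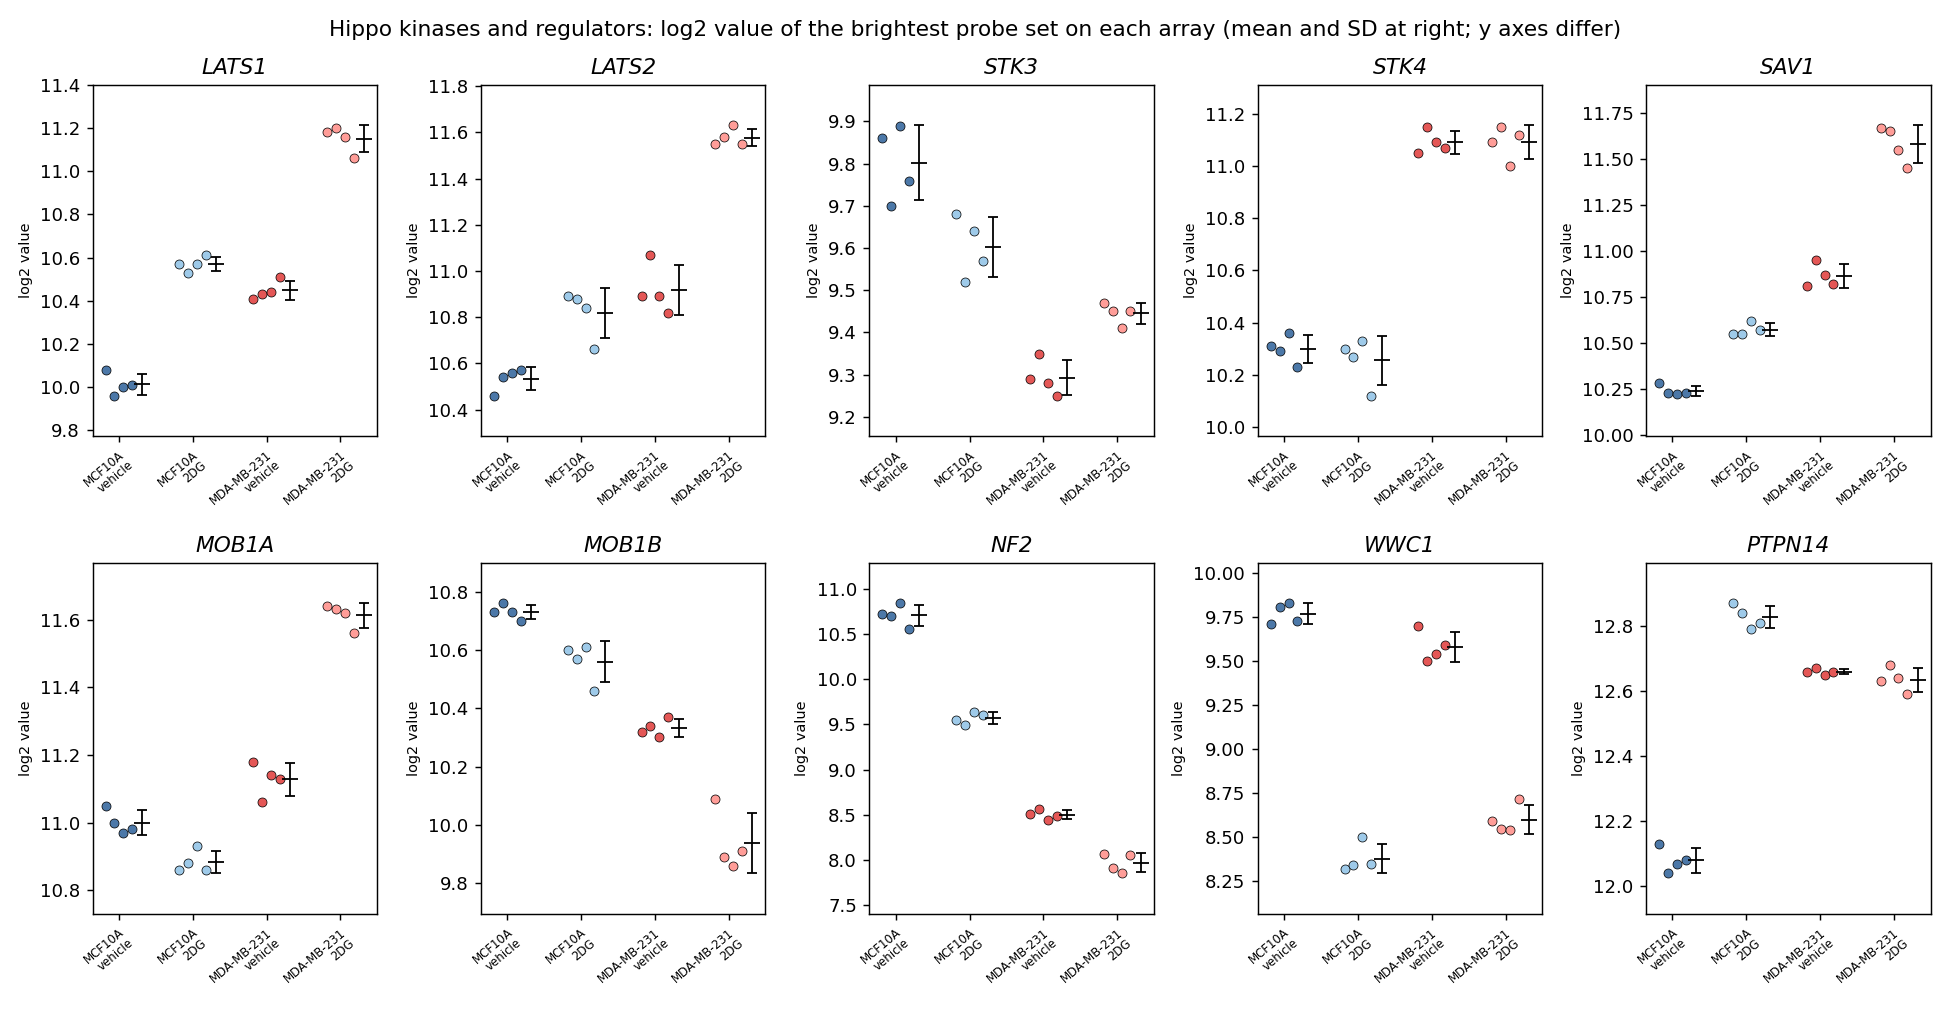
Log2 value of the brightest probe set of each of the 10 genes on each of the 16 arrays, by group, with the mean and SD of the 4 arrays beside the points and a separate y axis per gene. The 2DG and vehicle arrays of a line do not overlap for any of these genes except STK4 in both lines and PTPN14 in MDA-MB-231. The share of all genes without such overlap was not counted.

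The LATS kinases, which phosphorylate YAP and TAZ, rose in both lines on their brightest probe sets. LATS1 (227772_at) was at 10.08, 9.96, 10.00 and 10.01 on the MCF10A vehicle arrays and at 10.57, 10.53, 10.57 and 10.61 with 2DG. In MDA-MB-231 arrays it stood at 10.41, 10.43, 10.44 and 10.51 on vehicle and at 11.18, 11.20, 11.16 and 11.06 with 2DG. In each line every 2DG array lay above every vehicle array. The rise was 0.56 ± 0.0398 log2 (SE), or 1.47-fold, in MCF10A (adjusted p = 2.56e-09, limma) and 0.70 ± 0.0398, or 1.63-fold, in MDA-MB-231 (adjusted p = 1.8e-10). The responses differed by 0.14 ± 0.0563 (adjusted p = 0.0462, limma), a call that was lost in 12 of the 16 fits that left out 1 array. It was kept only without MCF10A vehicle replicate B, MCF10A 2DG replicate D, MDA-MB-231 vehicle replicate D or MDA-MB-231 2DG replicate D, and the values without 1 array ran from 0.12 to 0.18. The other 3 LATS1 probe sets had means between 3.47 and 4.76 in every group, near the low end of the arrays' range. Of these, 1570425_s_at fell by 0.18 in MCF10A (adjusted p = 0.0272, limma over all probe sets), and the others were not called in either line.

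LATS2 (227013_at) was at 10.46, 10.54, 10.56 and 10.57 in MCF10A vehicle and at 10.89, 10.88, 10.84 and 10.66 with 2DG. The MDA-MB-231 arrays stood at 10.89, 11.07, 10.89 and 10.82 on vehicle and at 11.55, 11.58, 11.63 and 11.55 with 2DG. The groups of each line were apart, with MCF10A 2DG replicate D the closest to its vehicle arrays. LATS2 rose by 0.28 ± 0.0576 in MCF10A (adjusted p = 0.000422, limma) and by 0.66 ± 0.0576 in MDA-MB-231 (adjusted p = 3.97e-08), a response larger by 0.38 ± 0.0814 in MDA-MB-231 (adjusted p = 0.00106). A second bright LATS2 probe set, 223380_s_at, rose by 0.23 and 0.68. The dim set 230348_at fell, by 0.44 in MCF10A (adjusted p = 0.00828, limma) and by 0.81 in MDA-MB-231 (adjusted p = 4.57e-05), so the direction for LATS2 holds for the bright probe sets. With the mean of all probe sets of a gene, neither LATS1 (0.11, adjusted p = 0.0601, limma) nor LATS2 (0.05, adjusted p = 0.348) was called in MCF10A, and the difference of response of LATS2 was 0.06 (adjusted p = 0.489). In MDA-MB-231 that setting left smaller rises, of 0.29 for LATS1 (adjusted p = 4.89e-05, limma) and 0.11 for LATS2 (adjusted p = 0.0423).

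The MST kinases, which phosphorylate LATS, changed by at most 0.20 log2 on their brightest probe sets. STK3, which encodes MST2, was at 9.86, 9.70, 9.89 and 9.76 in MCF10A vehicle and at 9.68, 9.52, 9.64 and 9.57 with 2DG. It was at 9.29, 9.35, 9.28 and 9.25 in MDA-MB-231 vehicle and at 9.47, 9.45, 9.41 and 9.45 with 2DG. The arrays of the groups of each line did not overlap, and the directions were opposite. STK3 fell by 0.20 ± 0.0466 log2 in MCF10A (adjusted p = 0.00147, limma) and rose by 0.15 ± 0.0466 in MDA-MB-231 (adjusted p = 0.0114), a difference of 0.35 ± 0.0659 (adjusted p = 0.000276). When the actin ratio was a covariate, the value for MDA-MB-231 was 0.12 (adjusted p = 0.167, limma). The dimmer STK3 set 211078_s_at fell by 1.24 in MCF10A (adjusted p = 6.82e-06, limma) and was at -0.14 in MDA-MB-231 (adjusted p = 0.548). The mean of all STK3 sets was 0.01 in MDA-MB-231 (adjusted p = 0.973, limma) and -0.72 in MCF10A (adjusted p = 5.75e-06).

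STK4, which encodes MST1, was at 10.31, 10.29, 10.36 and 10.23 in MCF10A vehicle and at 10.30, 10.27, 10.33 and 10.12 with 2DG on its brightest set, 225364_at. In MDA-MB-231 the values were 11.05, 11.15, 11.09 and 11.07 on vehicle and 11.09, 11.15, 11.00 and 11.12 with 2DG. The groups overlapped in both lines. The change was -0.04 in MCF10A, with a 95% interval of -0.15 to 0.06, and 0.00 in MDA-MB-231, with an interval of -0.10 to 0.10. Other STK4 probe sets did move in MDA-MB-231, where 5 of the 7 rose: 211085_s_at by 1.08 ± 0.184 (adjusted p = 9.28e-05, limma), 1569791_at by 1.04 ± 0.126 and 205411_at by 1.03 ± 0.159. In MCF10A those 3 sets were not called. Their responses differed between the lines by 1.30, 1.09 and 0.90 (adjusted p = 0.000637, 9.79e-05 and 0.00409, limma). On these sets MDA-MB-231 vehicle replicate B, which stood apart on the actin ratio, was the lowest vehicle array, at 7.62, 5.00 and 6.58. The other vehicle arrays lay between 8.24 and 8.60, 5.33 and 5.61, and 7.22 and 7.37. Every 2DG array lay above every vehicle array of MDA-MB-231, but no fit of these sets left out an array or used the actin ratio. In MCF10A, 223746_at rose by 0.66 and 236259_at fell by 0.22. The brightest set therefore does not describe STK4 as a whole in MDA-MB-231, where the mean of all its sets rose by 0.58 (adjusted p = 3.37e-07, limma) and the response differed by 0.55 (adjusted p = 5.55e-05).

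SAV1, the scaffold of the MST kinases, rose in both lines on its brightest probe set (234491_s_at). It was at 10.28, 10.23, 10.22 and 10.23 in MCF10A vehicle and at 10.55, 10.55, 10.62 and 10.57 with 2DG. In MDA-MB-231 arrays it stood at 10.81, 10.95, 10.87 and 10.82 on vehicle and at 11.67, 11.65, 11.55 and 11.45 with 2DG. The 4 groups were all apart, with every MDA-MB-231 array above every MCF10A array. The rise was 0.33 ± 0.0476 in MCF10A (adjusted p = 1.25e-05, limma) and 0.72 ± 0.0476 in MDA-MB-231 (adjusted p = 1.31e-09), a difference of 0.38 ± 0.0673 (adjusted p = 0.000146). The sets 222573_s_at and 218276_s_at rose by 0.32 and 0.33 in MCF10A and by 0.73 and 0.77 in MDA-MB-231. The dimmer sets 238729_x_at and 240421_x_at fell instead, by 1.65 ± 0.0831 and 1.63 ± 0.112 in MCF10A and by 1.11 ± 0.0831 and 1.12 ± 0.112 in MDA-MB-231 (adjusted p = 2.26e-07 at most, limma). On 238729_x_at the MCF10A vehicle arrays lay between 7.40 and 7.69 and the 2DG arrays between 5.70 and 6.11. The fall on that set was thus not among the lowest values of the arrays. On 240421_x_at the MCF10A arrays went from between 6.10 and 6.35 to between 4.18 and 4.84, nearer the low end. All 5 SAV1 probe sets carry a suffix (_s_at or _x_at) for probes that may be shared with other transcripts, and the mean of all 5 gave a fall of 0.46 in MCF10A (adjusted p = 2.43e-08, limma) and no call in MDA-MB-231 (adjusted p = 0.973).

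The MOB1 proteins are the coactivators of LATS. MOB1B, with 1 probe set (225997_at), fell in both lines. It was at 10.73, 10.76, 10.73 and 10.70 in MCF10A vehicle and at 10.60, 10.57, 10.61 and 10.46 with 2DG. It was at 10.32, 10.34, 10.30 and 10.37 in MDA-MB-231 vehicle and at 10.09, 9.89, 9.86 and 9.91 with 2DG, and the groups of each line were apart. The change was -0.17 ± 0.0484 log2 in MCF10A (adjusted p = 0.00666, limma) and -0.39 ± 0.0484 in MDA-MB-231 (adjusted p = 2.43e-06). It was larger in MDA-MB-231, by a difference of -0.23 ± 0.0684 (adjusted p = 0.0124, limma).

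MOB1A did not move as 1 unit across its 4 probe sets. On the brightest, 201298_s_at, it was at 11.05, 11.00, 10.97 and 10.98 in MCF10A vehicle and at 10.86, 10.88, 10.93 and 10.86 with 2DG. The MDA-MB-231 arrays stood at 11.18, 11.06, 11.14 and 11.13 on vehicle and at 11.64, 11.63, 11.62 and 11.56 with 2DG. The 2DG arrays thus lay just below the vehicle arrays in MCF10A and clearly above them in MDA-MB-231. The change was -0.12 ± 0.0357 in MCF10A (adjusted p = 0.0101, limma), which was -0.06 and not called after a second quantile normalization (adjusted p = 0.195). In MDA-MB-231 it was 0.48 ± 0.0357 (adjusted p = 4.74e-09, limma), and the responses differed by 0.60 ± 0.0504 (adjusted p = 4.12e-08). On 214812_s_at the MDA-MB-231 arrays went from between 11.09 and 11.32 to between 9.27 and 9.53, a fall of 1.75 ± 0.0678 (adjusted p = 1.26e-12, limma). The same set fell by 0.94 ± 0.0678 in MCF10A (adjusted p = 2.65e-09, limma). On vehicle 214812_s_at had the higher mean, 11.10 against 11.00 for 201298_s_at in MCF10A and 11.18 against 11.13 in MDA-MB-231. The choice of 201298_s_at as the brightest set thus rests on the 2DG arrays. The set 201299_s_at fell by 1.21 in MCF10A and by 1.09 in MDA-MB-231, and 201297_s_at by 0.41 in MCF10A only, with -0.02 in MDA-MB-231. The mean of all 4 sets was -0.59 in MDA-MB-231 (adjusted p = 6.88e-07, limma), against the direction of the brightest set, and -0.67 in MCF10A (adjusted p = 1.25e-07). Its difference of response was 0.08 (adjusted p = 0.564). All 4 carry the suffix for shared probes, and which transcripts each set reads was not analysed here.

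NF2, which encodes Merlin, fell with 2DG in both lines and was lower in MDA-MB-231 also on vehicle. On 218915_at it was at 10.72, 10.70, 10.84 and 10.56 in MCF10A vehicle and at 9.55, 9.49, 9.64 and 9.60 with 2DG. In MDA-MB-231 arrays it stood at 8.51, 8.56, 8.44 and 8.49 on vehicle and at 8.06, 7.91, 7.85 and 8.05 with 2DG. The 4 groups were apart and stood in this order from high to low. NF2 fell by 1.13 ± 0.0608, or 2.20-fold, in MCF10A (adjusted p = 6.14e-11, limma) and by 0.53 ± 0.0608, or 1.45-fold, in MDA-MB-231 (adjusted p = 1.05e-06). The response of MDA-MB-231 was smaller by 0.60 ± 0.0859 (adjusted p = 1.82e-05, limma). On vehicle NF2 was lower in MDA-MB-231 by 2.20 log2, or 4.61-fold (adjusted p = 1.19e-14, limma). Of all genes, bright and dim together, 8.91% had a change as large as that of NF2 in MCF10A. For the difference between the lines on vehicle the share was 4.12%.

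Every one of the 8 NF2 probe sets was called lower with 2DG in MCF10A, with changes from -0.50 to -2.22 log2. The set 211091_s_at fell by 2.22 ± 0.183 (adjusted p = 1.58e-08, limma), 204991_s_at by 1.94 ± 0.0961 and 217150_s_at by 1.77 ± 0.122. In MDA-MB-231 the brightest set was the only 1 of the 8 that was called, and the others ran from -0.29 to 0.03. All 8 were called lower in MDA-MB-231 than in MCF10A on vehicle, with differences from -0.70 to -3.38 log2, and the response differed in all 8, by 0.50 to 2.07. The 7 dimmer sets had vehicle means between 3.75 and 5.71 in MDA-MB-231, where small signals are compressed and a further fall is understated. The part of this limit in the smaller response on those sets was not tested. The brightest set had a vehicle mean of 8.50 in MDA-MB-231 and a response smaller by 0.60. The part of the same limit in that difference was not tested either. The mean of all 8 sets fell by 1.32 in MCF10A and by 0.14 in MDA-MB-231 (adjusted p = 6.98e-13 and 0.0386, limma), against 0.53 on the brightest set in MDA-MB-231.

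**Figure D2:**
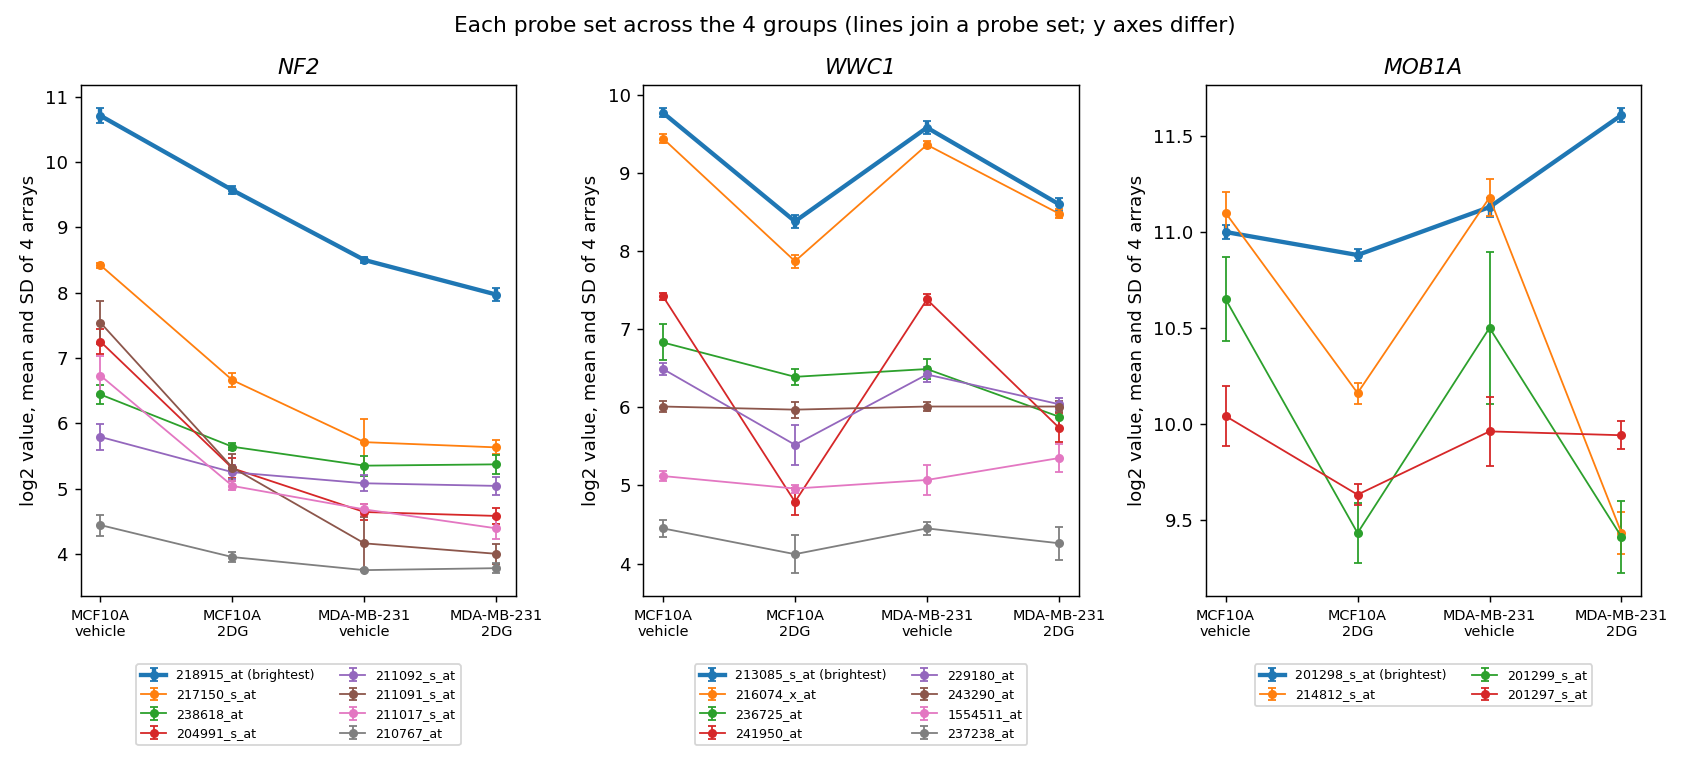
Mean and SD (4 arrays) of the log2 value of every probe set of NF2, WWC1 and MOB1A in the 4 groups, with the brightest set drawn thick, lines joining the values of a probe set and a separate y axis per gene. All 8 NF2 sets are lower in MCF10A 2DG than in MCF10A vehicle, the bright WWC1 sets fall in both lines, and the MOB1A sets part in MDA-MB-231, where 201298_s_at rises by 0.48 and 214812_s_at falls by 1.75.

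WWC1, which encodes KIBRA, had the largest fall of the 10 genes on the brightest probe sets in both lines. On 213085_s_at it was at 9.71, 9.81, 9.83 and 9.73 in MCF10A vehicle and at 8.32, 8.34, 8.50 and 8.35 with 2DG. The MDA-MB-231 arrays stood at 9.70, 9.50, 9.54 and 9.59 on vehicle and at 8.59, 8.55, 8.54 and 8.72 with 2DG. The 2DG arrays of both lines lay below all vehicle arrays. WWC1 fell by 1.39 ± 0.0557, or 2.63-fold, in MCF10A (adjusted p = 1.49e-12, limma) and by 0.98 ± 0.0557, or 1.98-fold, in MDA-MB-231 (adjusted p = 1.8e-10). The fall was smaller in MDA-MB-231 by 0.41 ± 0.0787 (adjusted p = 0.000356, limma). Of its 8 probe sets, 6 fell in MCF10A and 5 in MDA-MB-231, and the dim 1554511_at rose by 0.28 in MDA-MB-231 (adjusted p = 0.0195, limma). The largest falls were on 241950_at, by 2.62 ± 0.0889 in MCF10A (adjusted p = 1.52e-13, limma) and 1.64 ± 0.0889 in MDA-MB-231 (adjusted p = 8.44e-11). Without sets that carry a suffix for shared probes, 236725_at stands for WWC1, and it fell by 0.44 in MCF10A (adjusted p = 0.00189, limma) and by 0.61 in MDA-MB-231 (adjusted p = 9.68e-05). Its responses differed by -0.17 (adjusted p = 0.414, limma), so neither the size of the MCF10A fall nor the larger response of MCF10A holds on that set. The sets 241950_at and 229180_at, which carry no such suffix either, fell more in MCF10A, the latter by 0.97 against 0.38. Of all 8 sets, 5 were called with a more positive change in MDA-MB-231 and 3 were not called. With the mean of all 8 sets the falls were 0.94 and 0.55.

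PTPN14, the YAP-binding phosphatase, rose in MCF10A and was not called in MDA-MB-231 on its brightest probe set. On 226282_at it was at 12.13, 12.04, 12.07 and 12.08 in MCF10A vehicle and at 12.87, 12.84, 12.79 and 12.81 with 2DG. In MDA-MB-231 arrays it stood at 12.66, 12.67, 12.65 and 12.66 on vehicle and at 12.63, 12.68, 12.64 and 12.59 with 2DG. The MCF10A groups were apart, and the MDA-MB-231 groups overlapped and lay between them. PTPN14 rose by 0.75 ± 0.0326, or 1.68-fold, in MCF10A (adjusted p = 4.55e-12, limma), and in MDA-MB-231 the change was -0.02, with a 95% interval of -0.09 to 0.04. The responses differed by -0.77 ± 0.0462 (adjusted p = 7.42e-10, limma), the largest difference of response on the brightest probe sets of the 10 genes. All 4 PTPN14 sets rose in MCF10A, by 0.54 to 1.13. In MDA-MB-231, 205503_at rose by 0.92 ± 0.0572 (adjusted p = 5.36e-10, limma) and 244533_at by 0.13, so the absence of a call holds for 226282_at and 242321_at only. On 205503_at the response was larger in MDA-MB-231, by 0.37 (adjusted p = 0.00133, limma). The mean of all 4 sets rose by 0.29 in MDA-MB-231 (adjusted p = 5.47e-06, limma), and the difference of response was then -0.50 (adjusted p = 7.84e-07). In that setting NF2 (1.19), STK3 (0.73) and STK4 (0.55) had larger differences of response.

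**Figure D3:**
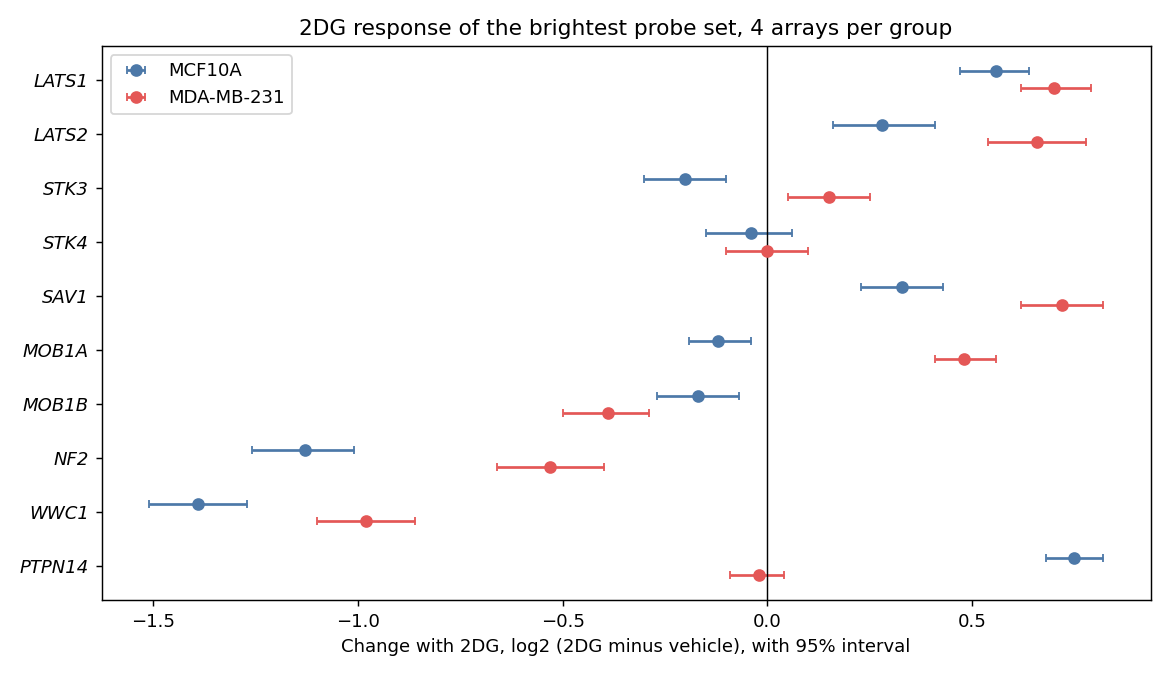
Log2 change with 2DG (2DG minus vehicle) of the brightest probe set of each gene in MCF10A and MDA-MB-231, with 95% intervals from the limma fit, 4 arrays per group. NF2 and WWC1 lie furthest to the left in both lines, LATS1, LATS2 and SAV1 to the right in both, and STK3, MOB1A and PTPN14 separate the lines.

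The response to 2DG differed between the lines for 9 of the 10 genes. The change was more positive in MDA-MB-231 for 7 (LATS1, LATS2, STK3, SAV1, MOB1A, NF2 and WWC1) and more negative for 2 (MOB1B and PTPN14), while STK4 was not called on its brightest set. Of all genes, 22.3% were called with the more positive and 23.6% with the more negative change in MDA-MB-231. The median difference of the 10 genes was 0.36 log2, beside 0.01 over all genes. Without the sets for shared probes, which leaves 8 genes because SAV1 and MOB1A have no other set, 3 had a more positive change in MDA-MB-231. The share of all genes called without those sets is not given here, and the shares above belong to the brightest sets.

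On vehicle, 6 of the 10 genes were higher in MDA-MB-231 than in MCF10A and 4 were lower, beside 29.2% and 26.8% of all genes. STK4 was higher by 0.79, SAV1 by 0.62, PTPN14 by 0.58, LATS1 by 0.44, LATS2 by 0.38 and MOB1A by 0.13. NF2 was lower by 2.20, STK3 by 0.51, MOB1B by 0.40 and WWC1 by 0.19. With 2DG, 6 were again higher and 4 lower, beside 30.7% and 28.8% of all genes. WWC1 was then higher in MDA-MB-231, by 0.22 (adjusted p = 0.00231, limma), and PTPN14 lower, by 0.19 (adjusted p = 6.58e-05). Without shared probe sets WWC1, then read on 236725_at alone, was called the other way under 2DG, at -0.51 (adjusted p = 0.00042, limma). That set was the only 1 of the 8 WWC1 sets called lower there, while 5 were called higher. With the mean of all probe sets, MOB1A was not called on vehicle (adjusted p = 0.97, limma) or under 2DG (0.07, adjusted p = 0.371), nor STK3 under 2DG (adjusted p = 0.984). That setting also moved LATS1 on vehicle to 0.11, SAV1 on vehicle to 1.07 and NF2 under 2DG to -0.75, against -1.60 on the brightest set. The comparisons of the lines and those of 2DG with vehicle share arrays, so these values are not independent of the responses given above. In the order of the 4 group means, neighbouring groups overlapped for LATS2 (MDA-MB-231 vehicle and MCF10A 2DG), for PTPN14 (the MDA-MB-231 groups) and for STK4 (both pairs of a line), and were apart for the other 7 genes. How common such gaps are over all genes was not counted, so this describes the 10 genes only.

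Over all 47 probe sets of the 10 genes, 11 rose, 26 fell and 10 were not called in MCF10A, and 16 rose, 12 fell and 19 were not called in MDA-MB-231. Of all 54613 probe sets that are not controls, 24.6% rose and 21.4% fell in MCF10A, and 22.8% rose and 20.9% fell in MDA-MB-231. The 26 that fell in MCF10A include 8 of NF2 and 6 of WWC1, and probe sets of 1 gene are not independent of each other. For the difference of response, 30 had a more positive and 5 a more negative change in MDA-MB-231, beside 18.1% and 18.5% of all probe sets. The 30 include 8 of NF2, most of them dim in MDA-MB-231, 5 of SAV1 and 5 of WWC1, and are likewise not independent. On vehicle, 19 were higher and 13 lower in MDA-MB-231, beside 24.2% and 22.2%, and the 13 include 8 of NF2. Probe sets of the same gene were called in opposite directions for LATS1, LATS2, STK4 and SAV1 in MCF10A and for LATS2, SAV1, MOB1A and WWC1 in MDA-MB-231.

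**Figure D4:**
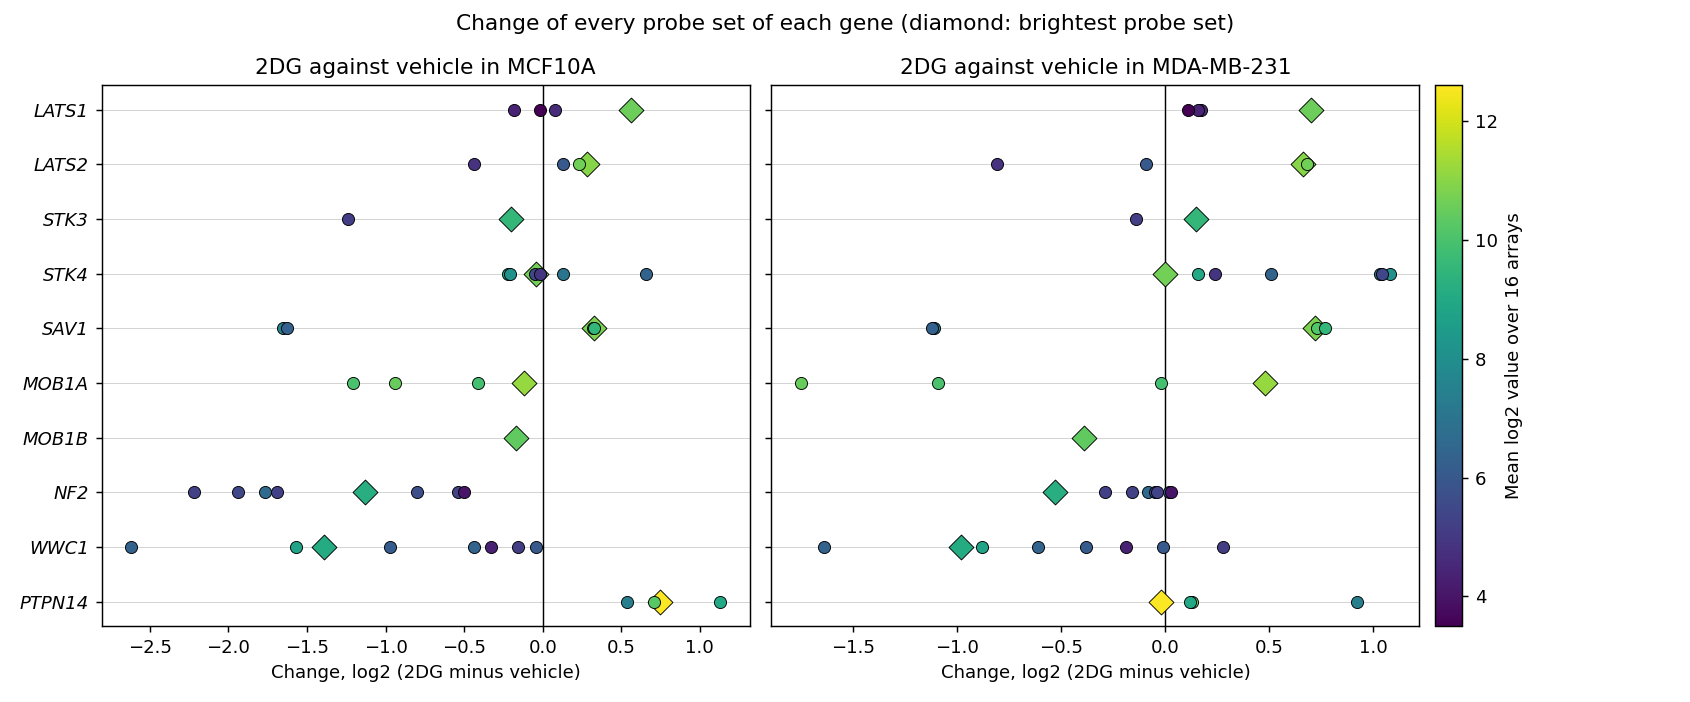
Log2 change with 2DG of all 47 probe sets of the 10 genes in each line, with the brightest set of a gene as a diamond and colour giving the mean log2 value over the 16 arrays. The NF2 and WWC1 sets lie at or left of 0 in MCF10A, PTPN14 lies right of 0 there, and the SAV1 and MOB1A sets lie on both sides of 0 in MDA-MB-231.

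Around these 10 genes, 66 other genes of the pathway were analysed, in 7 groups by role. In MCF10A 34 of the 66 rose, 16 fell and 16 were not called, and in MDA-MB-231 32 rose, 14 fell and 20 were not called. Over all genes 29.0% rose and 25.2% fell in MCF10A, and 25.5% rose and 25.4% fell in MDA-MB-231, so the falls among the 66 were near the share of all genes. For groups of 6 to 13 genes these shares amount to a few genes each way, and the counts below describe the groups only. Their median change was 0.15 log2 in each line, beside 0.02 and 0.03 over all genes.

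Among the cell polarity genes, which set the apical and basal sides of an epithelial cell, 8 of 9 rose in MCF10A, led by PARD6B with 0.94 ± 0.081 (adjusted p = 2.71e-08, limma), and DLG1 fell by 0.11, beside 29.0% and 25.2% of all genes. In MDA-MB-231 4 of the 9 rose, led by PARD3 with 0.94 ± 0.055 (adjusted p = 2.79e-10, limma), and 2 fell, with DLG1 at -0.31, beside 25.5% and 25.4%. For PARD3 1 of its 4 probe sets was called the opposite way in MDA-MB-231, as was 1 of the 7 of DLG1 in each line. Of the 11 apical adaptors measured, 7 rose and 2 fell in MCF10A, beside 29.0% and 25.2% of all genes. In MDA-MB-231 2 of the 11 rose and 5 fell, beside 25.5% and 25.4%, so the 2 that fell in MCF10A and the 2 that rose in MDA-MB-231 are not above those shares. In MCF10A the junction protein TJP1 rose by 0.78 ± 0.0296 and AMOTL2, which binds YAP, fell by 0.75 ± 0.0341 (adjusted p = 7.81e-13 and 7.63e-12, limma). In MDA-MB-231 the phosphatase PTPN21 rose by 0.60 ± 0.0492 and AMOTL1 fell by 0.70 ± 0.0406 (adjusted p = 1.92e-08 and 2.42e-10, limma), though 2 of the 4 AMOTL1 sets were called higher. For 7 of these 11 adaptors the change was more negative in MDA-MB-231 and for 1 it was more positive, beside 23.6% and 22.3% of all genes.

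The TAOK and MAP4K kinases can phosphorylate LATS beside the MST kinases. Of the 8 measured, 4 rose and none fell in MCF10A, beside 29.0% and 25.2% of all genes, and 7 rose and none fell in MDA-MB-231, beside 25.5% and 25.4%. TNIK rose most in MCF10A, by 1.34 ± 0.0652 (adjusted p = 1.82e-11, limma), and MAP4K5 in MDA-MB-231, by 0.82 ± 0.0938 (adjusted p = 1.16e-06). Among the NDR kinases and the other MOB genes, 4 of 7 rose in each line, and 2 fell in MCF10A and 1 in MDA-MB-231, beside the same shares of all genes. MOB3C rose by 1.29 ± 0.0479 in MCF10A and by 1.03 ± 0.0479 in MDA-MB-231 (adjusted p = 5.8e-13 and 1.54e-11, limma). MOB4, a STRIPAK component, fell by 0.79 ± 0.0422 and 1.34 ± 0.0422 (adjusted p = 5.67e-11 and 1.62e-13, limma).

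STRIPAK is a phosphatase complex that removes the activating phosphates of the MST kinases. Of its 12 measured genes, 2 rose and 6 fell in MCF10A, beside 29.0% and 25.2% of all genes. In MDA-MB-231 5 rose and 3 fell, beside 25.5% and 25.4%, so the falls there were at the share of all genes. STRIP2 fell by 1.42 ± 0.0789 in MCF10A (adjusted p = 1.03e-10, limma), and SIKE1 by 1.21 ± 0.0675 in MDA-MB-231 (adjusted p = 1.48e-10), with 1 of the 5 SIKE1 sets called higher. STRN rose by 0.77 ± 0.0379 in MCF10A on its brightest set (adjusted p = 2.08e-11, limma), while 5 of its 10 sets were called lower. The catalytic subunit PPP2CB rose by 0.53 ± 0.0341 in MDA-MB-231 (adjusted p = 9.57e-10, limma). In the group of RASSF, AJUBA and other regulators, 8 of 13 rose and 3 fell in MCF10A, and 9 rose and 1 fell in MDA-MB-231, beside the same shares; the 3 falls in MCF10A were near the share of all genes. RASSF5, which binds MST1, rose by 1.83 ± 0.0394 and RASSF1 fell by 0.53 ± 0.0398 in MCF10A (adjusted p = 7.89e-16 and 5.09e-09, limma). In MDA-MB-231 the ubiquitin ligase ITCH, which targets LATS1, rose by 1.39 ± 0.0576 (adjusted p = 4.01e-12, limma), though 3 of its 6 sets were called lower, and RASSF4 fell by 0.17. Of the 6 FAT and DCHS cadherins, 1 rose and 2 fell in each line, near the shares of all genes. FAT4 rose by 0.83 ± 0.0821 in MCF10A and fell by 0.59 ± 0.0821 in MDA-MB-231 (adjusted p = 1.59e-07 and 9.49e-06, limma). FAT2 fell by 1.21 ± 0.195 in MCF10A (adjusted p = 4.59e-05, limma), and FAT1 rose by 0.12 in MDA-MB-231 (adjusted p = 0.0482).

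**Figure D5:**
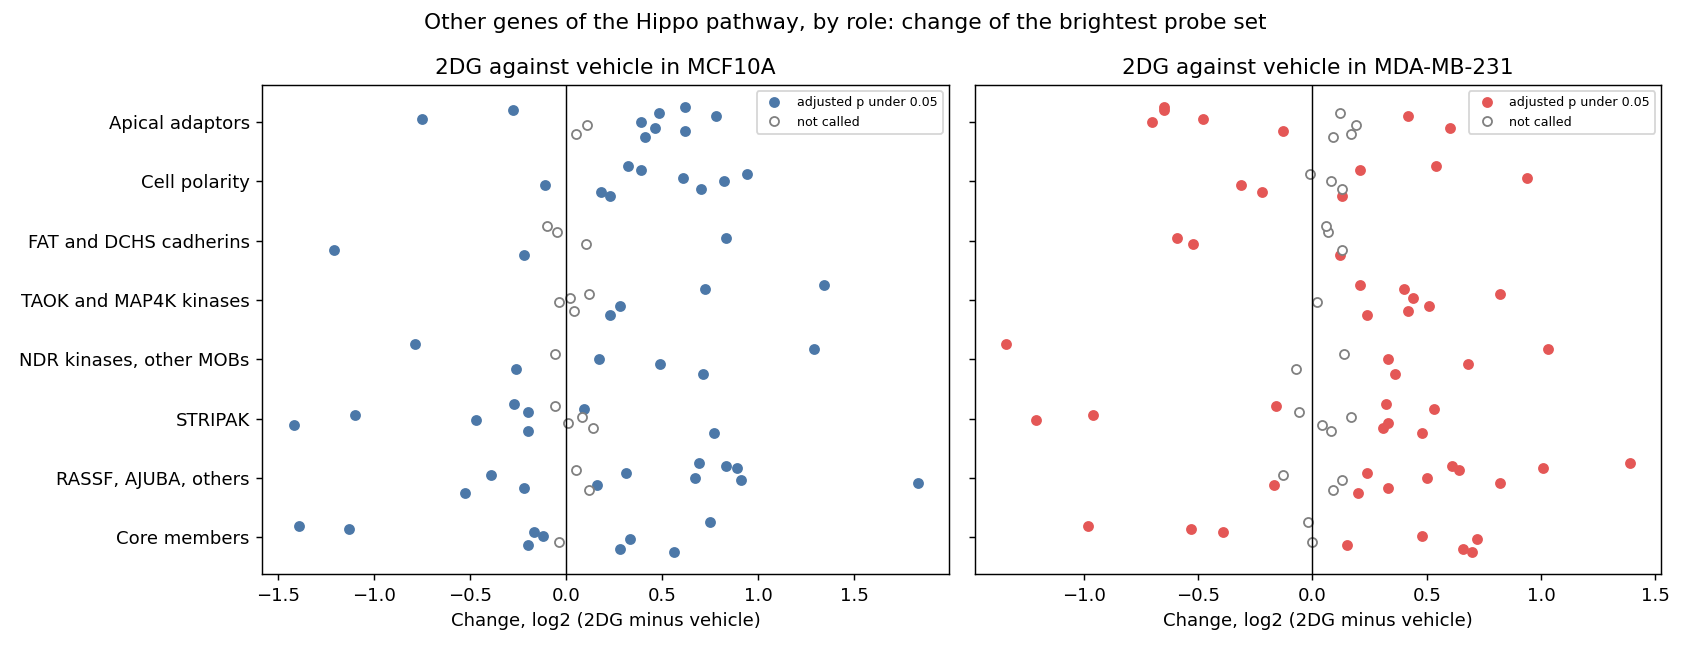
Log2 change with 2DG of the brightest probe set of the 66 other pathway genes by role, with the 10 core genes in the bottom line, filled where the limma adjusted p is under 0.05. The polarity genes lie mostly right of 0 in MCF10A, with 8 of 9 called higher, beside 29.0% of all genes.

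For the 3 of the 10 genes with the largest variance of the 4 group means, the genes with the most similar pattern over the 16 arrays were listed by Pearson correlation, as a description without a test. NF2 was closest to TTLL12 (0.994) and CFAP251 (0.993), WWC1 to HMGB1 (0.995) and MAGOHB (0.994), and SAV1 to EIF2S2 (0.994) and SETD5 (0.993). These arrays fall into 4 groups, so such values reflect mainly the order and spacing of the 4 group means. MAGOHB, for example, went from 9.41 to 7.16 in MCF10A and from 9.12 to 7.49 in MDA-MB-231, beside 9.77 to 8.38 and 9.58 to 8.60 for WWC1.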

How the data were processed

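RNA from 16 cultures was measured on 1-colour Affymetrix U133 Plus 2.0 arrays, 1 per culture, with biotin labelling from the 3' end per the labels' protocols. The deposited values are log2 RMA (robust multi-array average) summaries per probe set, per the submitters' processing notes. The RMA version, and whether all arrays were normalized together, are not given in the sources used here. There were 54675 probe sets, of which 62 are controls, with values from 2.38 to 15.15, with array medians between 6.17 and 6.22. The number of arrays limits the precision, and RMA compresses small signals.

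Names came from the platform annotation in GEO: 41091 had 1 gene, 1801 had several and were left out, 11777 were unnamed here, and the remaining 6 are controls with a gene name, left out as controls. Each of the 19775 genes took its probe set with the highest mean. The fit used 4 group means over all 16 arrays with 12 residual degrees of freedom (lmFit and eBayes, two-sided, limma 3.58.1, R 4.3.3), and a call needed an adjusted p (Benjamini-Hochberg) below 0.05. A second fit covered all 54613 probe sets that are not controls, the brightest sets included. Errors are the SE of the fit or the SD of 4 arrays. The design text calls the replicates independent and run in parallel.

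The 10 genes, the pathway lists and the marker lists were chosen with earlier results of these data known. Named genes were the 10, the actin and GAPDH controls, the called gene with the largest rise and the largest fall of each list in each line, and the 2 genes most like the 3 most variable of the 10. The procedure was tested on simulated data. Alternatives covered the choice of probe set, a filter on dim genes (mean under 6 in every group), the prior of eBayes, centring, a second quantile normalization, a replicate block, the actin ratio as a covariate, fits on the arrays compared only, and leaving out each array.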

Additional observations from a re-analysis of the deposited data

Results flagged for a closer look

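Of 40 groups of 4 arrays (10 genes in 4 groups), 2 held an array whose gap to the others was large for the range of its group, and chance gives about 1 in 20. SAV1 was at 10.28 in MCF10A vehicle replicate A, and WWC1 was at 8.50 in MCF10A 2DG replicate C. Both differences are small beside the changes with 2DG.

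The test of the difference of response between the lines (change in MDA-MB-231 minus change in MCF10A, limma, adjusted over all genes) called 9 of the 10 genes. Of all genes, it called 22.3% with a more positive and 23.6% with a more negative change in MDA-MB-231. The differences were 0.14 for LATS1, 0.38 for LATS2, 0.35 for STK3, 0.38 for SAV1, 0.60 for MOB1A, -0.23 for MOB1B, 0.60 for NF2, 0.41 for WWC1 and -0.77 for PTPN14. The lines also differ in medium, and the actin 3'/5' ratio with 2DG was 0.55 in MCF10A and 1.027 in MDA-MB-231, beside 0.393 and 0.597 on vehicle. The part of RNA quality in these differences was tested only through the covariate fit, which ended the call for LATS1.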

How the results depend on the processing

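The choice of probe set changed more results than the other settings. Those other settings were run on the brightest sets only. With the mean of all probe sets of a gene, 1 of the 10 genes was called higher in MCF10A instead of 4, because LATS1 and LATS2 were no longer called and SAV1 turned to -0.46. STK4 then stood at 0.04 in MCF10A, and MOB1A at -0.59 and PTPN14 at 0.29 in MDA-MB-231, all with the opposite sign. Without shared probe sets 8 genes remain, and 3 were called higher in each of MDA-MB-231 with 2DG, the difference of response and the lines under 2DG, in place of 5, 7 and 6. WWC1, then read on 236725_at alone, turned to -0.17 in the difference and to -0.51 between the lines under 2DG. In the difference, 5 of its 8 sets were called with a more positive change in MDA-MB-231 and 3 were not called. Between the lines under 2DG, 5 of its 8 sets were called higher in MDA-MB-231 and 1 lower. All other counts of called genes, those over all genes included, stayed within 1.5 times under every setting run. With each array left out in turn, the count of the 10 genes called with a more positive change in MDA-MB-231 ran from 6 to 7. The share of all genes called in each single setting is not given here. Over the settings that left out no single array, 4516 to 5776 of all genes were called higher in MCF10A.

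Single probe sets with the opposite sign to the brightest were these. In MCF10A with 2DG: LATS1 -0.18 and -0.02, LATS2 -0.44, STK4 0.13 and 0.66, and SAV1 -1.65 and -1.63. In MDA-MB-231 with 2DG: LATS2 -0.09 and -0.81, STK3 -0.14, SAV1 -1.11 and -1.12, MOB1A -1.75, -1.09 and -0.02, NF2 0.02 and 0.03, WWC1 0.28, and PTPN14 0.13, 0.12 and 0.92. In the difference of response: LATS2 -0.22 and -0.36, STK4 -0.15, MOB1A -0.81, WWC1 -0.17 and PTPN14 0.37. Between the lines on vehicle: LATS1 -0.03 and -0.01, MOB1A -0.15 and -0.07, and PTPN14 -0.12. Between the lines under 2DG: LATS2 -0.11, STK3 0.16, MOB1A -0.73 and -0.02, WWC1 -0.51 and PTPN14 0.25. The cause was not tested.

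With the replicate letter as a block, the LATS1 difference was 0.14 (adjusted p = 0.0752, limma), and no other call among the 10 genes changed. The replicates share only a letter: correlations of same-letter deviations ran from -0.099 to 0.088, and 3 of 8 vehicle arrays were nearest to their own letter. The same LATS1 difference was also lost without shared probe sets, with the actin ratio as a covariate and after a second quantile normalization. In the fit over all probe sets it was not called either (adjusted p = 0.0882, limma). The fit on the arrays compared only does not apply to the difference of response. Signals near the low end of the arrays limit what can be read for the dim sets of LATS1, NF2 and WWC1.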
